A study of Homo sapiens with 8 samples.

Results

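The respiratory chain subunits encoded in the nucleus were followed across KDM3B knockdown and all-trans retinoic acid (ATRA) treatment of NB4 cells. A gene was taken as a member when its symbol followed the naming pattern of the subunits of complex I (NDUFA, NDUFB, NDUFC, NDUFS or NDUFV with a number), complex II (SDHA to SDHD), complex III (UQCR names and CYC1) or complex IV (COX4 to COX8 names), when it was listed for every library, and when its counts summed to at least 100 over the 8 libraries. Of 37526 names listed for all 8 libraries, 119 followed the patterns. Pseudogene names took 51 of these and low counts 8, which left 60 members. They comprised 34 subunits of complex I, 4 of complex II, 10 of complex III and 12 of complex IV, where NDUFA4 was placed with complex IV, the complex it is now assigned to despite its name. The rule used names and summed counts but no comparison between groups.

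NB4 is a cell line of acute promyelocytic leukemia (APL) that carries the PML/RARα fusion. The cells had been stably transduced with an shRNA against KDM3B, a histone H3K9 demethylase (shKDM3B), or with a control (scramble, given as the empty vector pLVX-shRNA2-puro in the labels), and both were sequenced without ATRA (undifferentiated) and after ATRA (differentiated: scramble+ATRA and shKDM3B+ATRA), with 2 libraries in each of the 4 groups. The labels give 1 µM ATRA, where the methods text has 1 mM, and name both 24 and 48 h without saying which cells had which time. Which of the study's hairpins was used, and whether the libraries of a group came from separate cultures, is not given in the sources used here, so p-values measure the spread between these libraries, which may be technical.

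The respiratory chain passes electrons from NADH and succinate to oxygen across the inner mitochondrial membrane and pumps protons that drive ATP synthase. Complex I (NADH dehydrogenase) has a core that carries the flavin and iron-sulfur centres, to which NDUFS1, NDUFS3, NDUFS7, NDUFS8, NDUFV1 and NDUFV2 belong, and a shell of accessory subunits. Complex II is succinate dehydrogenase, in which SDHA holds the flavin, SDHB the iron-sulfur clusters and SDHC and SDHD anchor it in the membrane. Complex III (cytochrome bc1) hands electrons from ubiquinol to cytochrome c through UQCRFS1, the Rieske iron-sulfur protein, and CYC1, cytochrome c1. Complex IV (cytochrome c oxidase) reduces oxygen, and its nuclear-encoded subunits surround a catalytic core that is encoded in mitochondrial DNA. Only complex II has no subunit encoded there, so the other complexes need matched expression from both genomes. In the nucleus, NRF1 and the ETS factor GABP are known activators of many of these genes, with YY1 as a further factor.

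The promoters of 49 of the 60 members could be read from RefSeq promoter sequences (GRCh38.p14) and were searched on both strands, in the 250 bases before the start, for the NRF1 core GCATGCGC, the ETS core CCGGAAG and the YY1 core AAGATGGC. The NRF1 core was found in 7 of them (14.3%, against 2.81% of all 27305 promoters), the ETS core in 14 (28.6% against 8.82%) and the YY1 core in 0 (against 1.37%). At least 1 of these cores was present in 17 members (34.7% against 12.2%). The stretches below are those of the 6 members that changed with ATRA in shKDM3B cells and held a match, shown because they carry the letters found. Capitals mark the matches, read 5′ to 3′ on the strand of the gene, and a match is a description of letters, not of a bound site. In SDHD the first block of capitals joins an NRF1 core on each strand, which overlap.
SDHB (minus strand, chr1:17054144-17054242): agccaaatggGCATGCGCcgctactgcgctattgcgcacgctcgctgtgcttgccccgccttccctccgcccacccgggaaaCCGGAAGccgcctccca
SDHD (plus strand, chr11:112086753-112086812): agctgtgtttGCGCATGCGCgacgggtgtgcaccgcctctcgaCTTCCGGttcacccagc
COX6A1 (plus strand, chr12:120437885-120437956): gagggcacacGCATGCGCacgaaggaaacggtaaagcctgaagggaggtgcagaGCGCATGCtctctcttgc
COX8A (plus strand, chr11:63974592-63974618): agctccagaaCTTCCGGccagcgcagc
NDUFS6 (plus strand, chr5:1801351-1801378): cagaagccgtGCGCATGCgttagcgcta
UQCRQ (plus strand, chr5:132866578-132866604): atggtatctcCCGGAAGttacctcacg
SDHB and SDHD thus held both kinds of core, COX6A1 an NRF1 core on each strand and, outside the stretch shown, an ETS core nearer the start, NDUFS6 an NRF1 core, and COX8A and UQCRQ an ETS core. Members with a core and members with a promoter and no core had medians of log2 fold change of -0.076 and -0.059 between shKDM3B+ATRA and shKDM3B, and of -0.45 and -0.28 between shKDM3B+ATRA and scramble+ATRA.

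Levels are counts scaled to library size (CPM) on one TMM scale over the 8 libraries, which held from 9708739 to 33017787 counts on genes. A gene was called, that is, rose or fell, with a P-value below 0.05, before adjustment, together with a change of 1.5-fold or more in edgeR's quasi-likelihood test. SE stands for the standard error of a log2 value, and adjusted p-values were computed over all genes of that test. KDM3B measured 187 and 188 CPM in scramble, 76.3 and 86.2 CPM in shKDM3B, 196 and 121 CPM in scramble+ATRA and 52.5 and 57.4 CPM in shKDM3B+ATRA, and the log2 fold change of the knockdown was -1.21 without and -1.53 with ATRA. The share of reads outside genes was 8.49% to 9.62% in the 4 untreated libraries and in scramble+ATRA replicate 1, but 50.02% in scramble+ATRA replicate 2 and 51.4% and 51.0% in the shKDM3B+ATRA libraries. The treated files also list other names than the untreated ones, with 0 clone-based names (RP11- and the like) against 13819, so ATRA and the gene list cannot be told apart where treated cells are set against untreated ones. Counts of members, and values of the genes called, between shKDM3B+ATRA and scramble+ATRA are also given against each scramble+ATRA library alone, and for shKDM3B+ATRA against shKDM3B this split and ATRA cannot be told apart. The summed CPM of 8 markers of ATRA-induced granulocytic cells lay between 537 and 546 in scramble, 406 and 421 in shKDM3B, 8918 and 9945 in scramble+ATRA, and 4291 and 5006 in shKDM3B+ATRA, and 6 of these 8 were called lower in shKDM3B+ATRA than in scramble+ATRA. The sum over 7 promyelocyte markers lay between 4737 and 5968, 9205 and 10270, 937 and 1002, and 2683 and 3604 in the same order, with ELANE under 1 CPM in every library. Markers of erythroid and T cells summed to under 2 CPM, with all 5 erythroid markers under 1 CPM in every library. Those of B cells summed to 10.9 to 12.5 CPM in scramble, 6.32 to 10.6 in shKDM3B, 22.2 to 25.8 in scramble+ATRA and 13.9 to 16.8 in shKDM3B+ATRA. The markers of epithelial or kidney cells summed to 17.9 to 25.2 CPM over all libraries. In bulk RNA, a change in the mix of cell states and a change per cell cannot be told apart, and the part of these marker shifts in the results below was not tested.

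The 60 members together took 6398 and 5937 CPM in scramble, 6040.4 and 5866 in shKDM3B, 6757 and 7334 in scramble+ATRA, and 5725 and 5959 in shKDM3B+ATRA. The scramble+ATRA sums were thus the highest and those of shKDM3B+ATRA overlapped with those of untreated shKDM3B cells. Per length of the canonical transcript, UQCRH, the hinge protein of complex III, was the most abundant member in scramble cells with 473 ± 61.3 CPM per kb (SD, n = 2), followed by COX4I1, the largest nuclear-encoded subunit of complex IV, with 452 ± 30.6, and NDUFS5 with 384 ± 31.7. UQCRH and COX4I1 did not differ beyond their spread. At the other end, NDUFA7, NDUFV2 and NDUFA13 had 113, 127 and 212 counts over all 8 libraries. Each of the 4 members with under 600 counts in all, which also include NDUFB8, shares exon sequence on its own strand with another annotated gene, and reads in such shared sequence may have been set aside as ambiguous, so their levels are uncertain.

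For the complex IV subunits with tissue isoforms, reads came from the common forms. COX4I1 measured 362 and 329 CPM in scramble, whereas COX4I2 had 1 count over all libraries. COX6A1 and COX6B1 measured 27.6 and 29.0, and 86.7 and 95.1 CPM in scramble, whereas the heart and muscle form COX6A2 had 0 counts and the testis form COX6B2 had 2. COX7A2 measured 114 and 92.9 CPM in scramble and the related supercomplex factor COX7A2L 69.2 and 69.1, against 1 count in all for the muscle form COX7A1. COX7B2 and COX8C had 0 counts, beside COX7B with 165 and 161 CPM and COX8A with 35.5 and 41.9. A count of 0 allows a level of up to 0.092 to 0.316 CPM, depending on the library (3 counts, counting error only).

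**Figure D1:**
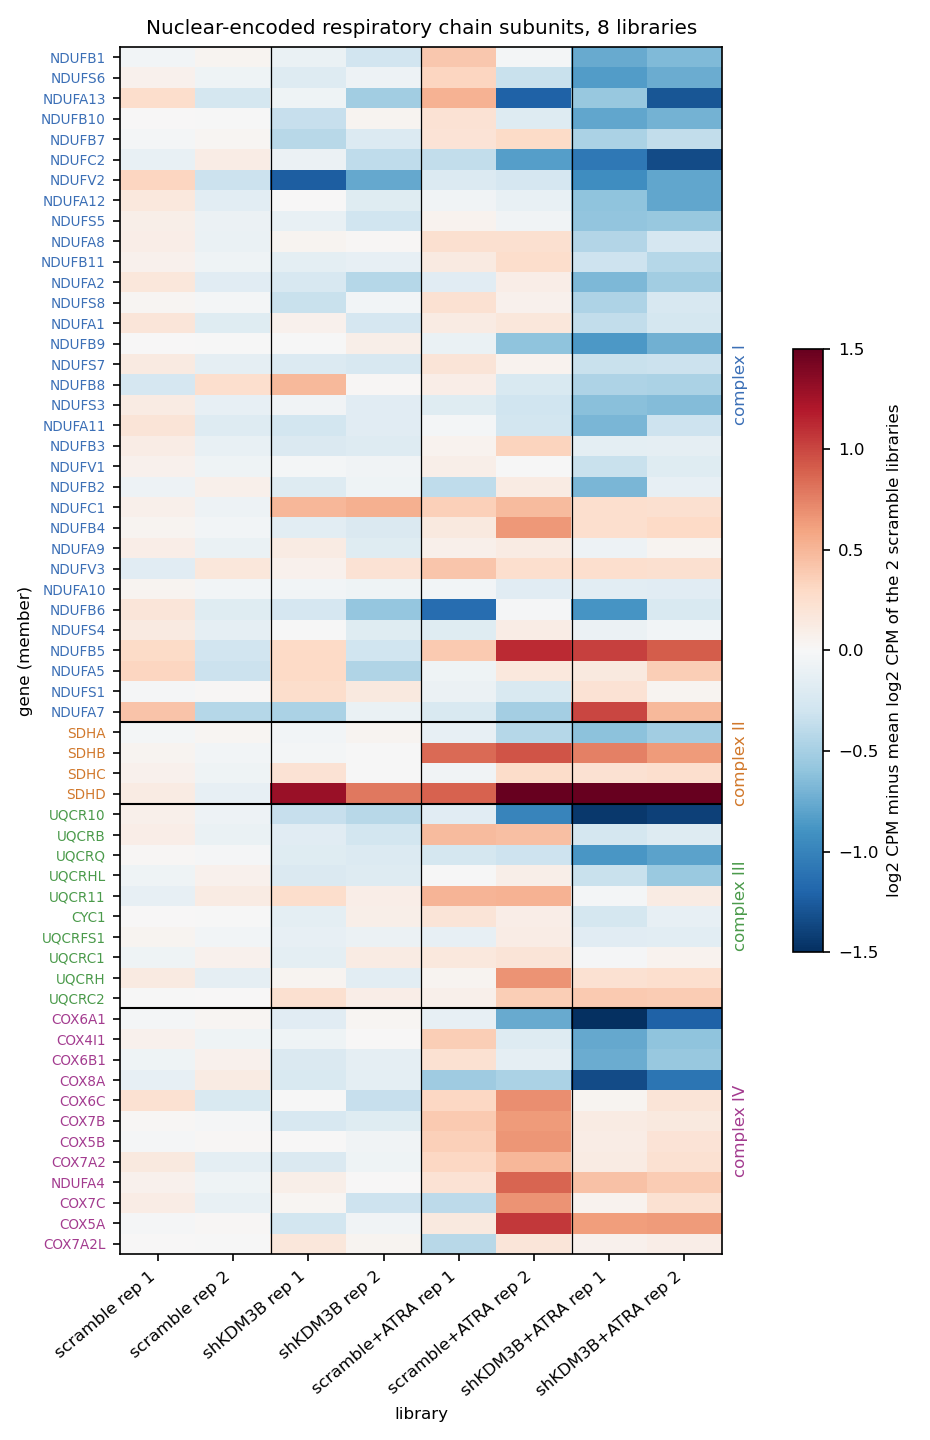
Heat map of 59 of the 60 members (rows, by complex, ordered by the difference between shKDM3B+ATRA and scramble+ATRA) in the 8 libraries (columns), coloured by log2 CPM minus the mean log2 CPM of the 2 scramble libraries, with colours capped at 1.5 in either direction. The shKDM3B+ATRA columns are blue for most complex I rows, while SDHD and SDHB are red with ATRA in both cell populations.

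Of the succinate dehydrogenase genes, SDHD and SDHB rose with ATRA in both cell populations, SDHD in shKDM3B cells only just, and SDHD was also the member that rose with the knockdown. SDHD, a membrane anchor of complex II (chr11:112086824-112120016, hg38), measured 66.2 and 56.1 CPM in scramble and 149.8 and 105 CPM in shKDM3B, and 113 and 178 CPM in scramble+ATRA and 179 and 192 CPM in shKDM3B+ATRA. Both scramble libraries were below all the other libraries. Relative to scramble, SDHD rose in shKDM3B by a log2 fold change of 1.06 (SE 0.20, adjusted p = 0.125) and in scramble+ATRA by 1.29 (SE 0.27, adjusted p = 0.0237). These comparisons share the scramble libraries. With ATRA, the knockdown difference of SDHD was 0.36 (SE 0.26, adjusted p = 0.694) and was not called, and its response to ATRA in shKDM3B cells was 0.59 (SE 0.17, adjusted p = 0.0157). The call of SDHD for ATRA in scramble cells was lost without scramble replicate 2 (1.16), and that in shKDM3B cells was lost in 7 of 10 alternatives, among them DESeq2, library size alone and all libraries in one fit, and the value was 0.36 without shKDM3B replicate 2. The response in shKDM3B minus that in scramble was -0.71 (SE 0.36, adjusted p = 1), which did not pass the interaction test. In SDHD, 11.4% of the exon length is shared with a readthrough gene on the same strand.

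SDHB, the iron-sulfur subunit (chr1:17018664-17054032), measured 129 and 121 CPM in scramble, 123 and 124 CPM in shKDM3B, 225 and 239.8 CPM in scramble+ATRA and 211 and 195 CPM in shKDM3B+ATRA. All 4 ATRA libraries were above all 4 untreated libraries, and scramble and shKDM3B overlapped. SDHB rose with ATRA by 0.93 (SE 0.20, adjusted p = 0.0242) in scramble and by 0.77 (SE 0.12, adjusted p = 6.02e-04) in shKDM3B cells, and no exon of SDHB overlaps another gene. Against scramble, SDHB had a log2 fold change of 0.85 with scramble+ATRA replicate 1 alone, which lies on the same side of the split in reads outside genes. SDHA, the flavoprotein, measured 351 and 367 CPM in scramble, 348 and 369.7 CPM in shKDM3B, 331 and 267 CPM in scramble+ATRA and 234 and 250.4 CPM in shKDM3B+ATRA. Its log2 fold change with ATRA was -0.23 in scramble and -0.51 in shKDM3B cells. The latter, with an adjusted p of 0.00548, missed the 1.5-fold threshold. In SDHA, 21.7% of the exon length is shared with a gene on the same strand, and its 3 listed pseudogene names held 2134 counts. SDHC, the other anchor, stayed between 82.5 and 104 CPM in the 8 libraries and was called in no comparison. SDHB and SDHD were thus the members of complex II called with ATRA.

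**Figure D2:**
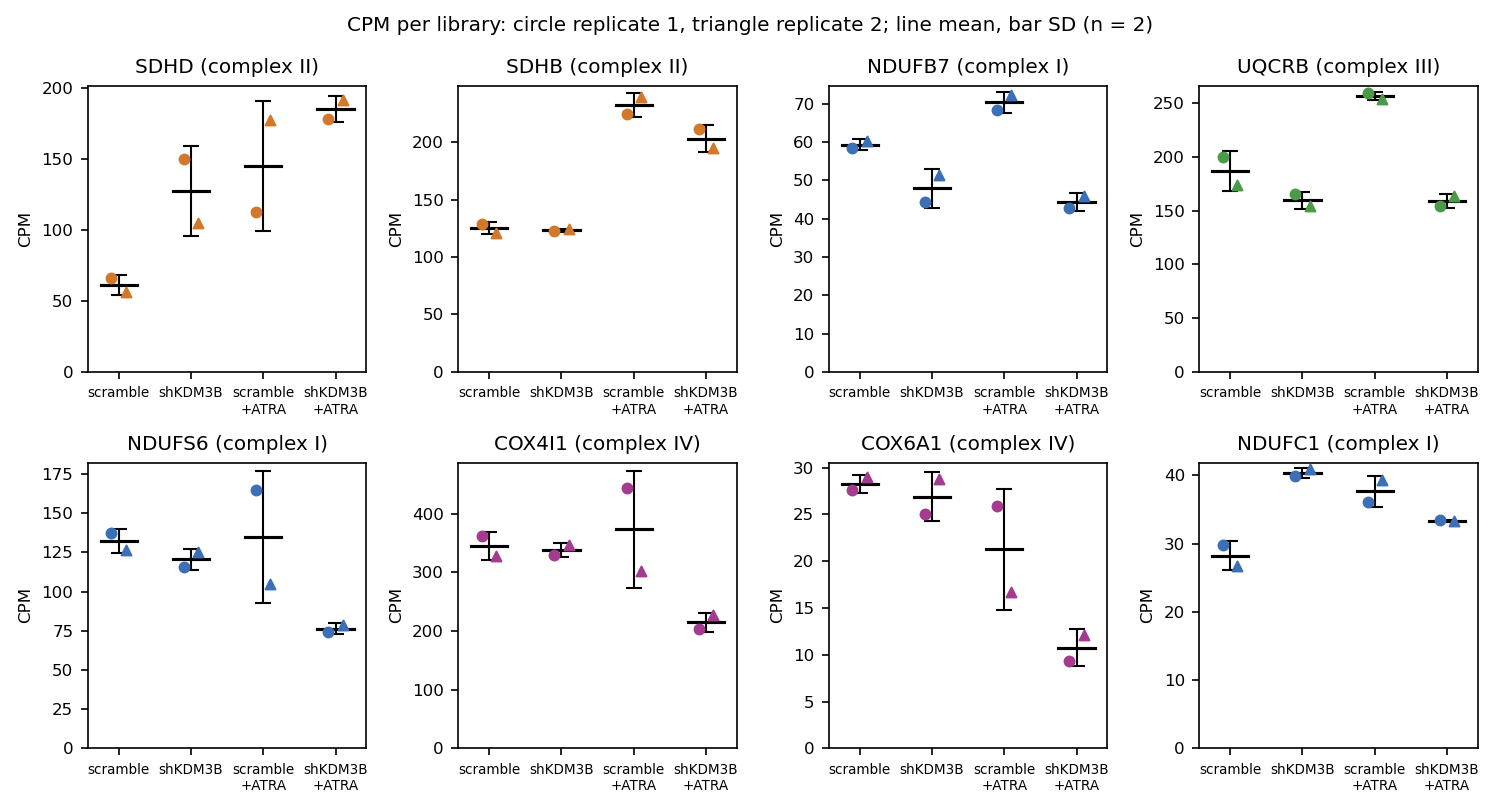
CPM (linear axis from 0) of 8 named members in the 4 groups, with circles for replicate 1, triangles for replicate 2, lines for the mean and bars for the SD (n = 2). SDHB lies higher in all 4 ATRA libraries, while NDUFB7, UQCRB, NDUFS6, COX4I1 and COX6A1 are lowest or near their lowest in shKDM3B+ATRA, and the scramble+ATRA libraries of NDUFS6, COX4I1 and COX6A1 lie far apart.

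In untreated cells, knockdown of KDM3B left the members close to the control. Of 60 members, 1 was called higher (SDHD) and 0 lower, where 3.48% of the 13855 genes tested were called higher and 3.53% lower. After Benjamini-Hochberg adjustment, 0 members passed in edgeR and 1, SDHD, in DESeq2, where 1.11% of the same genes passed upwards. At an unadjusted P-value under 0.05 alone, each tool had 2 members higher and 1 lower, where edgeR had 5.66% of all genes higher and 4.53% lower and DESeq2 5.12% and 3.61%. The next largest fitted values above 0 were those of NDUFC1, an accessory subunit of complex I (0.52, SE 0.17, adjusted p = 0.329), and NDUFB8 (0.24, SE 0.32, adjusted p = 0.872). NDUFC1 measured 29.8 and 26.7 CPM in scramble and 39.9 and 40.9 CPM in shKDM3B, with groups that did not overlap. The largest differences downwards were those of NDUFV2 (-0.98, SE 0.47, adjusted p = 0.554), which rests on 10 to 30 counts per library, NDUFB6 (-0.42, SE 0.20, adjusted p = 0.554) and UQCR10 (-0.38, SE 0.15, adjusted p = 0.442).

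The median log2 fold change of the members in untreated cells was -0.11, against 0.00022 over all genes tested, and 47 of 60 members were below 0. Both shKDM3B libraries were below both scramble libraries for 21 of 60 members, where 19.6% of all genes showed this order. The core subunits of complex I lay between -0.98 for NDUFV2 and 0.21 for NDUFS1, and the Rieske protein UQCRFS1 (-0.11), CYC1 (-0.029), UQCRC1 (-0.0058), UQCRC2 (0.17) and COX4I1 (-0.031) were all within 0.2 of 0. Between these ends of the core stood NDUFS3 (-0.11), NDUFS7 (-0.23), NDUFS8 (-0.18) and NDUFV1 (-0.042), and the other values in complex II were SDHA (-0.0011), SDHB (-0.019) and SDHC (0.11). The common forms of complex IV had log2 fold changes close to 0 too, with COX6A1 (-0.071), COX6B1 (-0.18), COX7A2 (-0.15), COX7A2L (0.11), COX7B (-0.22) and COX8A (-0.19). Without scramble replicate 1 the median was -0.024 and 2 members were called higher, where 3.35% of all genes were. Without scramble replicate 2 or shKDM3B replicate 1, 1 member was called lower, where 4.82% and 3.55% of all genes were.

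With ATRA, 9 of 60 members were called lower in shKDM3B+ATRA than in scramble+ATRA and 0 higher. These are 15% of the members, where 4.37% of the 14281 genes tested were called lower and 2.42% higher. None passed Benjamini-Hochberg adjustment in edgeR, where 18 members were lower at an unadjusted P-value under 0.05 alone, beside 5.76% of all genes. DESeq2 left 6 members lower at an adjusted p under 0.05 and 23 at an unadjusted one, beside 2.11% and 7.28% of the same genes, and neither tool had a member higher at either level. The median log2 fold change was -0.37, against 0.034 over all genes, and 52 of 60 members were below 0. Both shKDM3B+ATRA libraries were below both scramble+ATRA libraries for 41 of 60 members, where 26% of all genes showed this order.

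In complex I the called members were NDUFB1, NDUFB7, NDUFB10, NDUFA12 and NDUFS6. NDUFB7, an accessory subunit of the membrane arm (chr19:14566078-14572066), measured 68.4 and 72.3 CPM in scramble+ATRA and 42.8 and 46.0 CPM in shKDM3B+ATRA. Its log2 fold change was -0.66 (SE 0.12, adjusted p = 0.502), and the replicates of each group lay close together. Without ATRA, NDUFB7 measured 58.3 and 60.3 CPM in scramble and 44.3 and 51.5 CPM in shKDM3B. NDUFB1, the shortest transcript of these (chr14:92116122-92121917), measured 42.5 and 31.5 CPM in scramble+ATRA and 19.1 and 20.4 CPM in shKDM3B+ATRA, with a log2 fold change of -0.91 (SE 0.23). NDUFB10 measured 134 and 101 CPM in scramble+ATRA and 66.7 and 70.2 CPM in shKDM3B+ATRA, and its log2 fold change was -0.77 (SE 0.19). NDUFA12 measured 76.5 and 73.4 CPM in scramble+ATRA and 52.3 and 46.4 CPM in shKDM3B+ATRA, and its log2 fold change was -0.60 (SE 0.13). For NDUFS6, a zinc-binding accessory subunit (chr5:1801407-1816048), the scramble+ATRA libraries were far apart, with 165 and 105 CPM in scramble+ATRA and 73.9 and 78.8 CPM in shKDM3B+ATRA. Its log2 fold change was -0.82 (SE 0.27). In each of the 5 the groups did not overlap. Adjusted p-values of the 9 called members ranged from 0.502 to 0.508 in edgeR's test.

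In complex III, UQCRB, the ubiquinone-binding protein (chr8:96222947-96235546), measured 259.6 and 254 CPM in scramble+ATRA and 155 and 164 CPM in shKDM3B+ATRA. Its log2 fold change was -0.69 (SE 0.11), with tight replicates in both groups. Without ATRA, UQCRB measured 200 and 174 CPM in scramble and 165 and 154 CPM in shKDM3B. In complex IV, COX4I1 (chr16:85798633-85807068) measured 444 and 303 CPM in scramble+ATRA and 203 and 227 CPM in shKDM3B+ATRA, with a log2 fold change of -0.79 (SE 0.24). COX6B1, which faces the intermembrane space, measured 107 and 82.9 CPM in scramble+ATRA and 54.2 and 61.1 CPM in shKDM3B+ATRA, with -0.71 (SE 0.18). COX8A, a small membrane subunit, measured 26.7 and 27.8 CPM in scramble+ATRA and 15.2 and 17.99 CPM in shKDM3B+ATRA, with -0.71 (SE 0.20). In all of these both shKDM3B+ATRA libraries were below both scramble+ATRA libraries, and COX4I1 had the widest gap within scramble+ATRA. COX6A1 (-0.98, SE 0.34) and UQCR10 (-0.90, SE 0.33) missed the P-value threshold, and their values moved with the library, from -1.26 against scramble+ATRA replicate 1 alone to -0.62 against replicate 2 alone for COX6A1 and from -1.25 to -0.42 for UQCR10.

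Among the complex I core subunits, NDUFS3 (-0.39), NDUFS7 (-0.45), NDUFS8 (-0.50), NDUFV1 (-0.29) and NDUFV2 (-0.61) had log2 fold changes below 0, none called, and NDUFS1 was at 0.30. NDUFS7 shares 51.4% of its exon length with genes on the opposite strand. NDUFS1, the largest core subunit, measured 137 and 125 CPM in scramble+ATRA and 170.0 and 150.4 CPM in shKDM3B+ATRA, which do not overlap. The largest fitted values above 0 were those of NDUFA7 (1.11, from 6 to 15 counts per library), SDHD (0.36) and NDUFS1, none of them called. In complex III, UQCRFS1 (-0.16), CYC1 (-0.33) and UQCRC1 (-0.16) were below 0 and UQCRC2 (0.16) above, and in complex II the values were -0.30 for SDHA, -0.19 for SDHB and 0.12 for SDHC. Of the common complex IV forms not called, COX7A2 (-0.23) and COX7B (-0.39) were below 0 and COX7A2L (0.17) above.

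The count of 9 depended on the model and on the libraries. With the replicate number as a block, 4 members were called lower, where 2.42% of all genes were. The calls of NDUFB1, NDUFS6, COX4I1, COX6B1 and COX8A were then lost. Against scramble+ATRA replicate 2 alone, which has the same share of reads outside genes as the shKDM3B+ATRA libraries, 7 of 59 members were called lower, where 8.19% of all genes were, and the median was -0.40. Against replicate 1 alone, 15 were called lower and 2 higher, where 13.3% of all genes were called lower and 23.2% higher, with a median of -0.41. Without either shKDM3B+ATRA library, 0 members were called, where 0.624% and 1.45% of all genes were called lower, at medians that stayed below 0. UQCRB had -0.70 against replicate 1 alone and -0.66 against replicate 2 alone, NDUFB7 had -0.62 against replicate 1 alone and -0.69 against replicate 2 alone, and COX4I1 had -1.05 against replicate 1 alone and -0.48 against replicate 2 alone. COX8A (-0.69 and -0.73) and NDUFA12 (-0.63 and -0.56) also had like values against replicates 1 and 2. As for COX4I1, the values were nearer 0 against replicate 2 for NDUFS6 (-1.11 and -0.45), NDUFB1 (-1.11 and -0.66), NDUFB10 (-0.97 and -0.54) and COX6B1 (-0.89 and -0.51). The calls of COX4I1, COX6B1, NDUFA12, NDUFB10 and NDUFS6 were lost against replicate 2 alone, and those of NDUFA12 (-0.57) and NDUFS6 (-0.79) with library size alone as the scale.

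**Figure D3:**
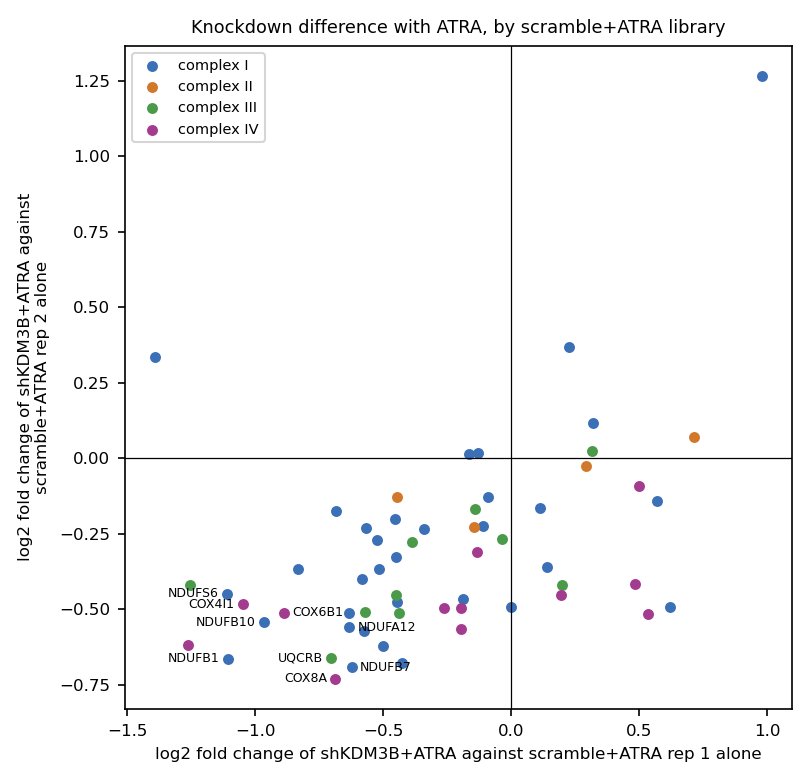
Log2 fold change of shKDM3B+ATRA against scramble+ATRA replicate 1 alone (x axis) and against replicate 2 alone (y axis) for 59 members, coloured by complex, with the 9 members called against both libraries together labelled. Both axes share the shKDM3B+ATRA libraries, and UQCRB and NDUFB7 lie close to the same value on each, while COX4I1 lies further from 0 on the x axis.

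Transcript length moved with this result. The canonical transcripts of the members had a median length of 760.5 bases, against 3359 for the protein-coding genes tested, and 46 of the 60 members belonged to the shortest of 5 equal length classes of these genes, with up to 1847 bases. Over the other genes of that class, the median log2 fold change between shKDM3B+ATRA and scramble+ATRA was -0.24, rising to -0.074, -0.011, 0.09 and 0.16 in the longer classes. The 46 members of the shortest class had a median of -0.43, below that of the other short genes, whose middle 50% ran from -0.51 to 0.019, and 8 of them (17.4%) were called lower, where 11.1% of the genes of the class were. The 14 longer members had a median of -0.096, against 0.036 over the other longer genes, and UQCRB was the 1 of them that was called. In untreated cells the medians of the other genes ran from -0.095 in the shortest class to 0.13 in the longest, and the 46 short members had -0.14. Against scramble+ATRA replicate 2 alone, the other short genes had -0.29 and the short members -0.45. The part of length in the lower levels of the members was not tested.

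**Figure D4:**
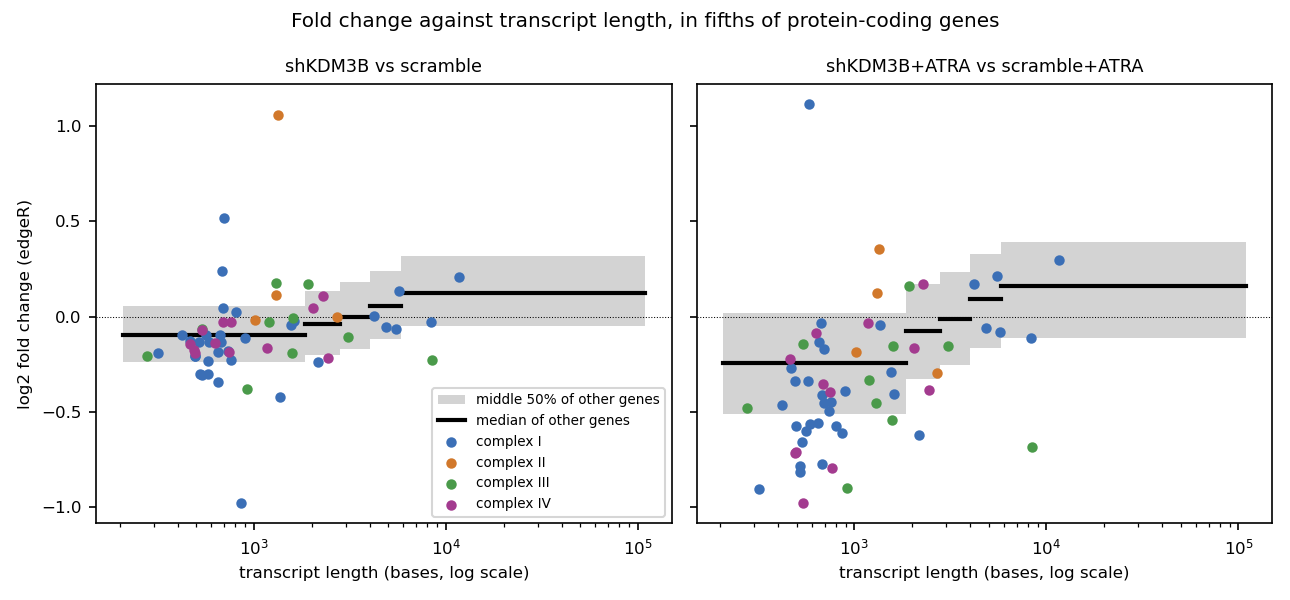
Log2 fold change of shKDM3B against scramble (left) and of shKDM3B+ATRA against scramble+ATRA (right) by canonical transcript length in bases (log axis). Points are the members by complex, black lines the median and grey areas the middle 50% of the other protein-coding genes in each of 5 length classes, which rise from left to right in both panels, from -0.24 to 0.16 with ATRA.

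ATRA changed few members in scramble cells. Of 60 members, 3 were called higher (SDHD, SDHB and NDUFB5) and 0 lower, where 15% of the 12429 genes tested were called higher and 10.8% lower. At an adjusted p under 0.05, SDHD and SDHB remained, where 7.84% of all genes passed upwards and 5.06% downwards. No member had an unadjusted P-value under 0.05 with a lower level in edgeR or DESeq2. NDUFB5, an accessory subunit of the membrane arm (chr3:179604690-179627647), measured 89.3 and 59.7 CPM in scramble and 96.2 and 159 CPM in scramble+ATRA. Both scramble+ATRA libraries were above both scramble libraries, and the log2 fold change was 0.81 (SE 0.32, adjusted p = 0.15). It was 0.38, not called, with scramble+ATRA replicate 1 alone and 1.13 with replicate 2 alone, and the call was also lost without either scramble library (1.10 and 0.53) and with library size alone (0.71). The largest fitted values below 0 were those of NDUFC2 (-0.54, SE 0.33, adjusted p = 0.349), UQCR10 (-0.49, SE 0.29, adjusted p = 0.336) and COX8A (-0.47, SE 0.22, adjusted p = 0.212), none of them called. Among the complex I core, NDUFS7 (0.15), NDUFS8 (0.18) and NDUFV1 (0.072) were above 0 and NDUFS1 (-0.12), NDUFS3 (-0.21) and NDUFV2 (-0.22) below. In complex III the values of UQCRFS1 (0.033), CYC1 (0.18), UQCRC1 (0.21) and UQCRC2 (0.26) were all above 0, and in complex IV those of COX4I1 (0.15), COX6B1 (0.094), COX7A2 (0.43) and COX7B (0.56), while COX6A1 (-0.38) and COX7A2L (-0.05) were below. None of these was called.

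The scramble+ATRA libraries did not give the same picture. With replicate 1 alone, on the same side of the split as the untreated libraries, 2 members were called higher and 1 lower, where 12.9% and 11.7% of all genes were. With replicate 2 alone, 11 were called higher and 2 lower, where 21.4% and 17% of all genes were, and 6 of the 11 were complex IV subunits. Without scramble replicate 2, 1 member was called higher, where 6.94% of all genes were, and the calls of SDHD (1.16) and NDUFB5 were lost. COX5A, a matrix-side subunit of complex IV, measured 185 and 347 CPM in scramble+ATRA and COX7C 149 and 312 CPM in scramble+ATRA, so that replicate 2 was well above replicate 1 in both. Over the members, the log2 difference of replicate 2 from replicate 1 ran from -1.73 for NDUFA13 to 1.13 for NDUFB6, with a median size of 0.25, against 0.10 to 0.15 in the other groups. The median over the members was 0.14 in scramble cells, against 0.016 over all genes, with 0.058 for complex I, 0.54 for complex II, 0.19 for complex III and 0.35 for complex IV. With replicate 1 alone the medians were 0.083, 0.40, 0.062 and 0.23 in the same order, and with replicate 2 alone 0.052, 0.64, 0.19 and 0.60. With library size alone as the scale, the complex I median turned to -0.036.

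In shKDM3B cells, ATRA moved members in both directions. Of 60 members, 5 were called higher and 8 lower, where 24% of the 12756 genes tested were called higher and 18.3% lower. At an adjusted p under 0.05, 4 and 8 remained, where 23% and 17.3% of all genes passed. This comparison lies across the split in reads outside genes and across both gene lists. The members called higher were SDHB and SDHD of complex II, NDUFB5 and NDUFA7 of complex I, and COX5A of complex IV. NDUFB5 measured 90.1 and 59.4 CPM in shKDM3B and 148 and 137 CPM in shKDM3B+ATRA, with a log2 fold change of 0.99 (SE 0.19, adjusted p = 0.00189). COX5A (chr15:74919791-74938083) measured 137 and 161 CPM in shKDM3B and 257 and 259.8 CPM in shKDM3B+ATRA, with 0.85 (SE 0.13, adjusted p = 5.05e-04). For both, the groups did not overlap. NDUFA7 (1.06, SE 0.44, adjusted p = 0.0718) rests on 11 to 24 counts per library, its call was lost in 8 of 10 alternatives, among them DESeq2 and each library left out, and 32.5% of its exon length is shared with a readthrough gene on the same strand.

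The 8 members called lower with ATRA in shKDM3B cells came from complex I (NDUFC2, NDUFB9 and NDUFS6), complex III (UQCR10 and UQCRQ) and complex IV (COX6A1, COX8A and COX4I1). COX6A1, the common form of subunit VIa (chr12:120438090-120440737), measured 27.6 and 29.0 CPM in scramble, 25.1 and 28.7 CPM in shKDM3B, 25.9 and 16.7 CPM in scramble+ATRA and 9.37 and 12.2 CPM in shKDM3B+ATRA. Its log2 fold change with ATRA was -1.27 (SE 0.20, adjusted p = 6.41e-04) in shKDM3B cells and -0.38 (SE 0.27, adjusted p = 0.426) in scramble cells, and its processed pseudogenes, listed separately, held 1090 counts in all. UQCR10, a small subunit near cytochrome c1 (chr22:29767369-29770413), measured 62.2 and 59.5 CPM in shKDM3B and 29.1 and 29.9 CPM in shKDM3B+ATRA, with -0.99 (SE 0.14, adjusted p = 3.63e-04), and 24.5% of its exon length lies opposite another gene. COX8A (chr11:63974620-63976543) measured 32.9 and 34.9 CPM in shKDM3B and 15.2 and 17.99 CPM in shKDM3B+ATRA, with -0.98 (SE 0.17, adjusted p = 0.00115). In all 3 the shKDM3B+ATRA libraries were well below the shKDM3B ones. In COX8A, 35.4% of the exon length is shared with a gene on the same strand.

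NDUFB9 measured 141 and 151 CPM in shKDM3B and 78.1 and 85.7 CPM in shKDM3B+ATRA, with a log2 fold change of -0.78 (SE 0.13, adjusted p = 7.85e-04). NDUFS6 measured 116 and 125 CPM in shKDM3B and 73.9 and 78.8 CPM in shKDM3B+ATRA, with -0.61 (SE 0.13, adjusted p = 0.00337). UQCRQ, subunit VII of complex III (chr5:132866630-132868847), measured 82.4 and 81.6 CPM in shKDM3B and 51.3 and 53.9 CPM in shKDM3B+ATRA, with -0.59 (SE 0.13, adjusted p = 0.00456). None of these groups overlapped. COX4I1 (-0.60, SE 0.12, adjusted p = 0.00278) and NDUFC2 (-0.92, SE 0.27, adjusted p = 0.0184) completed the list, and NDUFC2 held only 3.92 to 9.35 CPM. When libraries were left out singly, the values ran from -0.69 to -0.54 for COX4I1 and from -0.71 to -0.54 for NDUFS6. Those of UQCRQ ran from -0.63 to -0.57, and each of these ranges fell short of 1.5-fold at its end nearer 0. Without shKDM3B replicate 2 or shKDM3B+ATRA replicate 2, 3 members were called higher in place of 5, where 23% and 20.9% of all genes were. COX4I1, NDUFS6 and COX8A were also called lower in shKDM3B+ATRA against scramble+ATRA, a comparison that shares the shKDM3B+ATRA libraries.

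The member median for ATRA in shKDM3B cells was -0.061, against 0.045 over all genes, with -0.17 for complex I, 0.38 for complex II, -0.041 for complex III and 0.28 for complex IV. Over the 40 members whose exons overlap no gene on the opposite strand, the median was 0.032, so its direction depended on which members were taken. The core subunits NDUFS1 (-0.019), NDUFS7 (-0.056), NDUFS8 (-0.12) and NDUFV1 (-0.16) were close to 0 or slightly below it, NDUFV2 was at 0.15, and NDUFS3 (-0.47, adjusted p = 0.0106) missed the fold threshold. CYC1 (-0.11), UQCRFS1 (-0.0063), UQCRC1 (0.071) and UQCRC2 (0.26) were not called, nor were COX6B1 (-0.43), COX7A2 (0.37), COX7A2L (0.028) and COX7B (0.40) among the common complex IV forms, or SDHC (0.18).

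**Figure D5:**
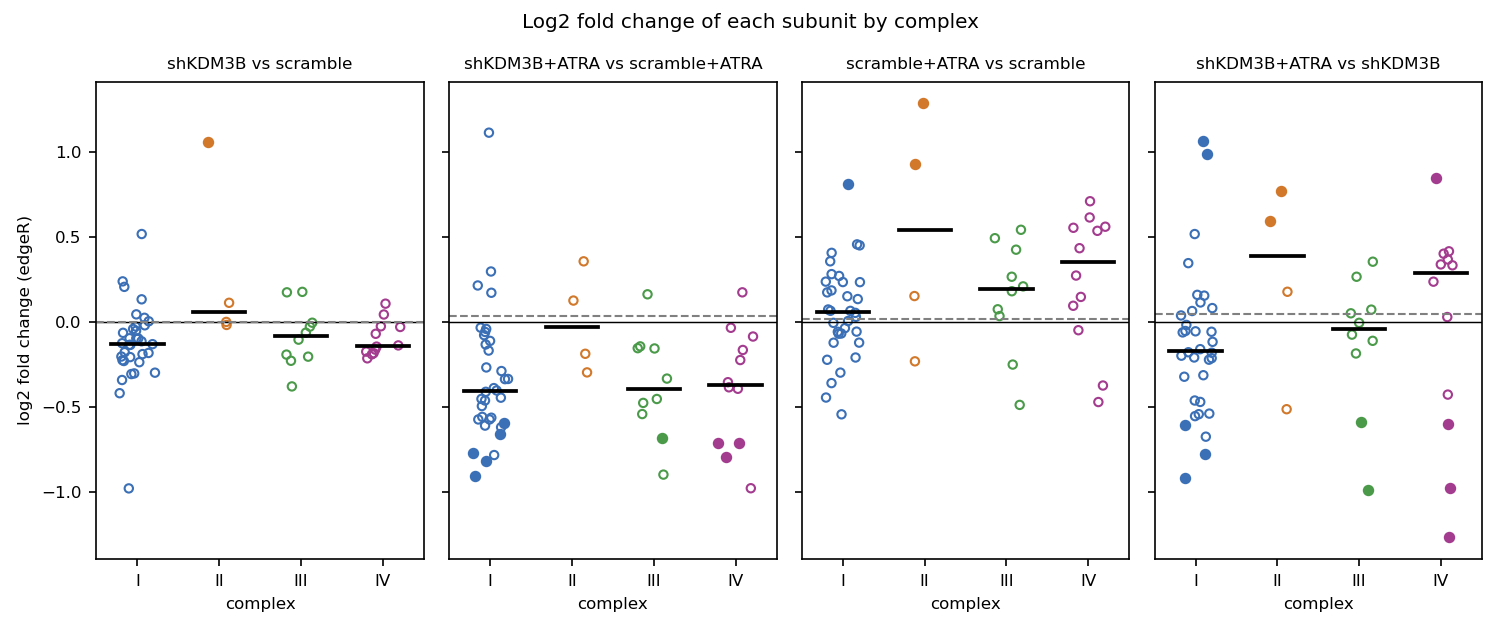
Log2 fold change of each member (circles, filled where called) by complex in the 4 comparisons, with black lines for the median of the complex and a dashed grey line for the median of all genes tested. With ATRA the knockdown medians lie at -0.41, -0.032, -0.39 and -0.37 for complexes I to IV, and complex II is the highest of the 4 in every panel.

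The response to ATRA was compared between the cell populations by an interaction test over all 8 libraries. Of 60 members, 7 had a lower response in shKDM3B than in scramble at an unadjusted P-value under 0.05 and 0 a higher one, where 3.07% of the 13528 genes tested were lower and 1.42% higher. None passed adjustment in edgeR, and DESeq2 gave 0 after adjustment and 9 before, all lower, where 2.82% of the same genes were. With log2 differences in parentheses, the 7 were COX6A1 (-0.91, SE 0.35), COX4I1 (-0.77, SE 0.27), NDUFB1 (-0.72, SE 0.26), NDUFC1 (-0.69, SE 0.19), NDUFB10 (-0.64, SE 0.27), NDUFA8 (-0.60, SE 0.20) and UQCRB (-0.46, SE 0.19). NDUFC1 measured 29.8 and 26.7 CPM in scramble, 39.9 and 40.9 CPM in shKDM3B, 36.0 and 39.3 CPM in scramble+ATRA and 33.5 and 33.3 CPM in shKDM3B+ATRA, so that it was higher with ATRA in scramble and lower with ATRA in shKDM3B cells. NDUFA8, an accessory subunit that faces the intermembrane space (chr9:122144058-122159779), measured 57.5 and 50.1 CPM in scramble, 55.2 and 54.3 CPM in shKDM3B, 63.2 and 63.5 CPM in scramble+ATRA and 39.7 and 45.1 CPM in shKDM3B+ATRA. Its lowest values were those of shKDM3B+ATRA, and the untreated groups overlapped.

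The median of the interaction over the members was -0.26, against -0.024 over all genes, and 48 of 60 were below 0. The count of 7 was 2 without scramble replicate 2, 4 without shKDM3B replicate 1, 2 without shKDM3B replicate 2 and 1 without shKDM3B+ATRA replicate 1, where 3.16%, 2.64%, 1.38% and 1.12% of all genes were lower. Without scramble+ATRA replicate 2 it was 13, with 3 members higher, where 10.6% of all genes were lower and 9.03% higher. Without scramble+ATRA replicate 1, it was 7, where 3.41% of all genes were lower. For the short genes other than members, the median interaction was -0.15, and for the 46 short members -0.33.

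ATP synthase uses the proton gradient that the chain builds. With ATRA, 4 of its 18 subunits were called lower in shKDM3B+ATRA and 0 higher, where 4.37% and 2.42% of all genes were, at a median of -0.40, against 0.034 over all genes. Of all genes in the shortest length class, 11.1% were called lower, and the part of length in the values of these 18 was not tested. ATP5I, ATP5J2 and ATP5E had the largest folds, and ATP5I measured 104 and 56.4 CPM in scramble+ATRA and 33.2 and 35.8 CPM in shKDM3B+ATRA, with scramble+ATRA libraries that lay far apart and a log2 fold change of -1.22 (adjusted p = 0.502). The values were -1.17 for ATP5J2 and -0.70 for ATP5E. Against scramble+ATRA replicate 1 alone, 6 of the 18 were called lower, where 13.3% of all genes were, with -1.59 for ATP5I, -1.40 for ATP5J2 and -0.87 for ATP5E. Against replicate 2 alone, 2 of the 18 were, where 8.19% of all genes were, ATP5I (-0.70) and ATP5J2 (-0.90), with ATP5E at -0.49. In shKDM3B cells, 5 of the 18 fell with ATRA and 0 rose, where 18.3% and 24% of all genes did, with log2 fold changes of -1.54 for ATP5I, -1.31 for ATP5J2 and -0.90 for ATP5O, while in scramble cells and in the untreated knockdown comparison 0 were called.

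Assembly factors build the complexes without staying in them. Of 16 complex I assembly factors, 1 was called lower in shKDM3B+ATRA (NDUFAF8, -1.62) and 0 higher, with a list median of -0.038. Of all genes, 4.37% were called lower and 2.42% higher. NDUFAF8 had -2.12 against scramble+ATRA replicate 1 alone and -0.85 against replicate 2 alone. Of 10 factors for complexes II and III, 0 were called in that comparison, with a median of 0.0076. Against scramble+ATRA replicates 1 and 2 alone their medians were 0.11 and -0.06. Of 23 complex IV factors tested, 0 were called, with a median of -0.022. Against scramble+ATRA replicate 1 alone their values ran from -1.03 to 1.40 (median 0.22). Against replicate 2 alone they ran from -1.16 to 0.33 (median -0.14), and COX14 was the lowest against each. With ATRA in scramble cells, 5 of these 23 were called higher and 1 lower, and in shKDM3B cells also 5 and 1, where 15% and 10.8% of all genes were called in scramble and 24% and 18.3% in shKDM3B cells. COX20, which assists the insertion of COX2, rose by 1.54 and 2.11, HIGD1A by 1.27 and 1.69, and CMC1 by 1.08 and 1.66. COX20 measured 37.6 and 28.9 CPM in scramble and 54.9 and 133 CPM in scramble+ATRA and 138 and 130.1 CPM in shKDM3B+ATRA, so that scramble+ATRA replicate 1 was nearer to the untreated libraries and replicate 2 to the shKDM3B+ATRA ones. With replicate 1 alone the values in scramble cells were 0.73 for COX20, called, and 0.30 for HIGD1A and 0.11 for CMC1, not called, and with replicate 2 alone 2.04, 1.83 and 1.64. Among complex I factors, 2 were called lower with ATRA in scramble cells (NDUFAF2, -0.76, and NDUFAF6, -0.69) and 3 in shKDM3B cells (NDUFAF8, -1.94, NDUFAF2, -1.13, and NDUFAF6, -0.80). Of the 10 factors for complexes II and III, SDHAF2 was called lower in untreated shKDM3B cells (-0.64), where 3.53% of all genes were, UQCC3 with ATRA in scramble (-0.60), and SDHAF1 (-1.03) and SDHAF4 (-0.68) with ATRA in shKDM3B cells. In scramble cells, NDUFAF6 (-0.57) and UQCC3 (-0.56) were not called with scramble+ATRA replicate 2 alone.

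Of the 13 subunits encoded in mitochondrial DNA, 0 were called in either knockdown comparison, with medians of -0.14 without and -0.024 with ATRA. Of all genes, 3.48% and 2.42% were called higher and 3.53% and 4.37% lower. The 0 with ATRA rests on scramble+ATRA libraries that differed. Against replicate 1 alone the values ran from -1.81 to 1.56 (median 0.055). Against replicate 2 alone they ran from -0.49 to 0.52 (median -0.15). With ATRA, 2 of the 13 were called higher and 1 lower in scramble cells, where 15% and 10.8% of all genes were. In shKDM3B cells, 6 were called higher and 1 lower, where 24% and 18.3% of all genes were. MT-ND6, the one subunit encoded on the light strand, measured 594 and 229.5 CPM in scramble and 677 and 1633 CPM in scramble+ATRA and 1715 and 1803 CPM in shKDM3B+ATRA, and its log2 fold change in shKDM3B cells was 2.37. MT-ND5 rose there by 1.17 and MT-ATP8 fell (-1.79), and in scramble cells MT-ND2 rose by 0.67 and MT-ND4L fell (-0.73), neither of them called with scramble+ATRA replicate 1 alone (0.40 and -0.47). Overlapping mitochondrial genes and transcripts of both strands cannot be told apart where counting ignores strand.

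Among 14 genes of cytochrome c and coenzyme Q synthesis, COQ8B was the 1 called in a knockdown comparison, lower with ATRA (-0.83, and -0.96 and -0.68 against scramble+ATRA replicates 1 and 2 alone). With ATRA, 2 were called higher in scramble cells (COQ10B, 1.00, and PDSS2, 0.59), neither of them with scramble+ATRA replicate 1 alone (0.55 and 0.45), and in shKDM3B cells 3 higher and 1 lower, with COQ10B at 0.94, COQ10A at 0.85 and COQ8A at -0.78. These counts stand beside 4.37% of all genes called lower in shKDM3B+ATRA against scramble+ATRA, 15% called higher with ATRA in scramble cells, and 24% higher and 18.3% lower in shKDM3B cells. Of 14 regulators tested, 2 were called higher in untreated shKDM3B cells, MYC (0.65) and GABPB2, a GABP beta subunit (0.59), where 3.48% of all genes were, and 0 in shKDM3B+ATRA against scramble+ATRA. With ATRA, 1 was called higher and 3 lower in scramble cells, the latter POLRMT, the mitochondrial RNA polymerase (-0.87), PPRC1 (-0.86) and MYC (-0.85), where 15% of all genes were called higher and 10.8% lower. PPRC1 was not called with scramble+ATRA replicate 1 alone (-0.54). In shKDM3B cells 2 were called higher and 3 lower, among them POLRMT (-1.44), MYC (-1.17) and GABPA, the DNA-binding subunit of GABP (1.49). GABPA measured 60.6 and 45.6 CPM in scramble and 48.1 and 121 CPM in scramble+ATRA and 119 and 108 CPM in shKDM3B+ATRA, and here too scramble+ATRA replicate 1 stood with the untreated libraries.

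How reads were shared between genes limits some of these values. Of the 60 members, 29 have no exon overlapped by another gene of GENCODE v44, which may differ from the gene models used for counting, 20 share exon sequence on the same strand and 20 lie partly opposite another gene. Over the 29, the median difference of shKDM3B+ATRA from scramble+ATRA was -0.23, with 6 called lower and 0 higher, against -0.04 over the 5215 genes without overlap, of which 5.87% were called lower. For 32 members, 110 pseudogene names were listed with 4095 counts in all, and UQCRHL, a near copy of UQCRH without introns, held 7.54 to 11.7 CPM beside 227 to 404 for UQCRH, so that their reads may be split.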

How the data were processed

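Total RNA of NB4 cells was sequenced from TruSeq libraries, 2 in each of 4 groups taken from the labels. The authors used HISAT2 for alignment (hg38) and HTSeq for counting, and deposited whole-number counts per gene, which were not normalized. Per the methods, genes came from a RefSeq refFlat file, but the deposited names include clone-based names of another style, so the models used are uncertain, and the strand setting is not given in the sources used here. The summary lines of HTSeq (reads outside genes, ambiguous and the like) were left out of library sizes. The files of untreated and treated cells list 56470 and 56609 names, of which 37526 are shared, and comparisons across treatment used the shared names.

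From 9708739 to 33017787 counts lay on genes per library. Each pair of groups was fitted in edgeR 4.0.16 (R 4.3.3) with filterByExpr, TMM and the quasi-likelihood test. Standard errors are the log2 fold change divided by the square root of F. P-values were adjusted after Benjamini and Hochberg over all genes tested, and the call rule (P-value below 0.05 and 1.5-fold) follows the study's methods. The difference in ATRA response was an interaction over all 8 libraries, called at the P-value alone. CPM values use TMM factors over the 8 libraries. With 2 libraries against 2, a permutation test cannot go below a two-sided p of 0.333. Counts of replicate libraries differed by more than sampling noise in every group.

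Positions, transcript lengths and exon overlaps came from GENCODE v44 on hg38, where 81.6% of the names tested with ATRA and all 60 members were found. Promoters came from RefSeq (GRCh38.p14). The members and all lists were chosen with earlier results of these data known. In each comparison up to 12 called members per direction are named by fold, or the 3 with the largest fold in a direction where fewer than 3 were called, and always the complex I core (1 member is not reported singly here), SDHA to SDHD, UQCRFS1, CYC1, UQCRC1, UQCRC2, COX4I1 and the isoform sets. COX7C and further values were named after they were seen. Of the other lists, up to 3 called genes per comparison are named.

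Alternatives were DESeq2 1.42.0 and its size factors, library size alone, no low-count filter, adjusted p-values, 1 fit for all libraries, the replicate number as a block, each library left out, other count minimums and members without exons overlapped on the opposite strand. Members without any exon overlap and members outside the shortest transcripts were added after seeing the data. The scripts were tested on simulated counts. Python 3.11.15, pandas 2.3.3, numpy 2.4.6, scipy 1.17.1 and matplotlib 3.10.9 were used.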

Additional observations from a re-analysis of the deposited data

Results flagged for a closer look

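Between scramble and shKDM3B cells, 7 members had a different response to ATRA by the interaction test before adjustment, and none of them after it (adjusted p = 1.00 for each in edgeR's quasi-likelihood test). The difference, the log2 response in shKDM3B minus that in scramble, was -0.91 for COX6A1, -0.77 for COX4I1, -0.72 for NDUFB1, -0.69 for NDUFC1, -0.64 for NDUFB10, -0.60 for NDUFA8 and -0.46 for UQCRB. When libraries were left out singly, these 7 values lay between -1.20 and -0.37, but over 13 alternatives the call was lost in 9 for NDUFB10, 8 for UQCRB, 7 for COX6A1, 6 for NDUFB1, 4 for COX4I1, 3 for NDUFA8 and 0 for NDUFC1.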

How the results depend on the processing

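Without the low-count filter, 1 member was called lower in untreated shKDM3B cells in place of 0 (3.06% of all genes), and 3 in place of 5 were called higher with ATRA in shKDM3B cells (19.1%), as also with DESeq2 (3, and 8.39% without a filter) and with all 8 libraries in one fit (3, and 20.3%). DESeq2 gave 5 members higher with ATRA in scramble cells in place of 3, and 5.33% of all genes it was run on, without a filter on low counts. Adjusted p-values left 0 members higher in untreated shKDM3B cells, 0 lower in shKDM3B+ATRA against scramble+ATRA and 0 in the interaction. With library size alone as the scale, the median was 0.046 in place of 0.14 for ATRA in scramble cells and -0.19 in place of -0.26 for the interaction. Among members with no exon overlapped on the opposite strand, the median for ATRA in shKDM3B cells was 0.032 in place of -0.061, and the cause was not tested. Among those with none overlapped on either strand, chosen after seeing the data, it was 0.037, that of shKDM3B+ATRA against scramble+ATRA -0.23 in place of -0.37, and that of ATRA in scramble cells 0.21. Among members outside the shortest transcripts, also chosen after seeing the data, the median of shKDM3B+ATRA against scramble+ATRA was -0.096.

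With each library left out in turn, members called in untreated shKDM3B cells ranged from 1 to 2 higher and from 0 to 1 lower, with medians from -0.14 to -0.024. In shKDM3B+ATRA against scramble+ATRA they ranged from 0 to 2 higher and from 0 to 15 lower, with medians from -0.41 to -0.32. For ATRA in scramble cells the ranges were 1 to 11 higher and 0 to 2 lower, with medians from 0.073 to 0.17, and for ATRA in shKDM3B cells 3 to 5 higher and 6 to 10 lower, with medians from -0.098 to -0.03. For the interaction they were 0 to 3 higher and 1 to 13 lower, with medians from -0.32 to -0.20. Where 1 library was left in a group, it was assumed to vary like the others. Of 351 values of the called members under these alternatives, 258 kept their direction and passed the thresholds, 93 kept their direction alone and 0 turned.

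The replicate numbers in the labels mark no shared culture or day that the sources name. Same-numbered libraries had correlations of their deviations from the group means, across genes, of 0.39 without ATRA, 0.026 with ATRA, -0.073 between scramble and scramble+ATRA and 0.18 between shKDM3B and shKDM3B+ATRA. With the replicate block, 4 members in place of 9 were called lower in shKDM3B+ATRA against scramble+ATRA, without NDUFB1, NDUFS6, COX4I1, COX6B1 and COX8A, where 2.42% of all genes were in place of 4.37%, and 4 in place of 0 members had an adjusted p under 0.05 in untreated shKDM3B cells, where 9.22% of all genes did.

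For NDUFA7, NDUFV2 and NDUFA13, with 113 to 212 counts over all libraries, log2 differences between groups had standard errors from 0.40 to 0.81. The part of depth in this was not tested.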

Other observations

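Some subunits followed the naming patterns but fell under the minimum of 100 counts. NDUFA3, an accessory subunit of complex I, had 9 and 10 counts in scramble, 18 and 13 in shKDM3B, 7 and 1 in scramble+ATRA, and 1 and 0 in shKDM3B+ATRA, a total of 59. The lowest counts were those of the 3 libraries with 50.02% to 51.4% of their reads outside genes, which also had the fewest counts on genes (9708739 to 11623305, against 16882512 to 33017787 in the others). NDUFA6, another accessory subunit of complex I with no exon overlapped by another gene in the annotation used here, was listed at 0 in all 8 libraries.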
